A study of Mus musculus with 6 samples.

Results

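The genes described here form the machinery that decides whether a cell dies or survives: the BCL2 family, the caspases, and the adapters, inhibitors and mitochondrial factors around them. Members were the gene probes whose name on the array is one of 38 listed symbols, 11 of genes acting against cell death and 27 of genes acting for it. A probe under its own name was found for 36 of the 38 symbols, with 73 probes in all, and 35 members could be tested among 19090 tested genes of the series, 9 acting against cell death and 26 acting for it. Bcl2a1a and Bcl2a1b had no probe under their own names, and both probes of Hrk, a BH3-only killer best known from neurons, were not well above background on any array.

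Colon tissue with tumors was profiled from C57BL/6 mice carrying colitis-associated colon cancer. All mice, controls included, had been injected with the carcinogen AOM and had drunk DSS, an irritant that causes colitis; neither healthy colon nor the other formulations of the study were measured on arrays. One group of 3 mice was given RG@M-γ-CD by mouth and the other group of 3 mice received PBS. Each mouse had its own one-color Agilent array. RG is regorafenib, a multi-kinase inhibitor, and M-γ-CD is a mannose-bearing γ-cyclodextrin that holds the drug as a guest and packs into channel-type nanoparticles. The mice were male and were bought as young adults, and the tissue was not dissected into cell types. The arrays are called RG1, RG2, RG3, PBS1, PBS2 and PBS3 below after the replicate numbers of the labels.

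In mitochondrial apoptosis, BH3-only proteins sense damage or loss of growth factors and free BAX and BAK1 to open the outer mitochondrial membrane, while BCL2, BCL2L1, BCL2L2, MCL1 and BCL2A1 hold them back. Released cytochrome c (Cycs) joins APAF1 in the apoptosome, which activates caspase 9, and DIABLO and HTRA2 release the caspases from inhibitors such as XIAP. Death receptors act through FADD and TRADD on caspase 8, which CFLAR restrains, and where caspase 8 is blocked RIPK1, RIPK3 and MLKL can drive necroptosis, a lytic death. In the colon this balance governs the loss of crypt epithelium after injury and the turnover of infiltrating leukocytes. Many of these proteins are controlled by cleavage and binding, which an mRNA array does not measure.

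Some of the probes that carry the results are shown first, each by the first 30 of its 60 bases, 5′ to 3′, with positions as given on the array in build mm9. They are the used probes of Bcl2a1d, Bax, Mlkl, Casp2, Apaf1, Birc3 and Bcl2, picked by hand and not by displacement. For 4 of these genes, further probes are shown whose main accession is an Ensembl transcript and which list no RefSeq mRNA. The sequences come from the scanner output. An annotation of mm9 was not used here, so exon or UTR is not stated.
Bcl2a1d, chr9:88618165-88618224, minus strand: cacttggcatttccatttacaaacatgaaa
Bax, chr7:52717122-52717181, minus strand: tcctgggatgaatgggggaaggggaaaggc
Mlkl, chr8:113835897-113835956, minus strand: cggttgaagaatccacggacaagaaggtgt
Casp2 used probe, chr6:42232367-42232426, plus strand: ccaagtggtttgaagacttgctgccaaatt
Casp2 Ensembl probe, chr6:42219062-42219121, plus strand: gtgagaatgtcatcgatgactgatgccttc
Apaf1 used probe, chr10:90452580-90452639, minus strand: aacaaaatcttgtatagggttaaggaaggt
Apaf1 Ensembl probe, chr10:90459622-90459681, minus strand: ttgctctgtttcttgtgcacactgtattca
Birc3 used probe, chr9:7854409-7854468, minus strand: agaactacaggaccgtcagtgacctcgtta
Birc3 first Ensembl probe, chr9:7866193-7866252, minus strand: atcaggccttgcatctgggttaccaaaaat
Birc3 second Ensembl probe, chr9:7868669-7868728, minus strand: ttataacttggttgtgaatttgacttctgg
Bcl2 used probe, chr1:108434793-108434852, minus strand: catataatggctctttgtttgtgttgttag
Bcl2 Ensembl probe, chr1:108607310-108607369, minus strand: ggagagaagctattttgtaagatgtttagt
The probe named Bcl2a1d lists RefSeq transcripts of 3 genes, Bcl2a1d, Bcl2a1b and Bcl2a1a, so its value is that of these near-identical copies together.

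Levels below are log2 intensities less the 75th percentile of their array. Differences are mean RG@M-γ-CD minus mean PBS on that log2 scale, tested with limma and adjusted over all 19090 genes. The arrays had 49.6% to 55.1% of their gene probes well above background and 0 saturated gene spots. All 10 epithelial markers were well above background, among them Epcam, Cdh1 and Vil1, so the labelled colon tissue held its defining cells. The treated arrays did not form a group of their own. Across all genes the lowest correlation of RG1 was with RG2 (r = 0.941), while it reached 0.987 with PBS3 and 0.985 with PBS2. RG3 too correlated more with PBS2 (0.985) and PBS3 (0.984) than with RG2 (0.977) or RG1 (0.973). RG2 was less like PBS2 (0.964) and PBS3 (0.962) than RG1 and RG3 were. A heat map in the supplement of the study clusters the arrays under numbers. If these are matched to the numbers of the deposited files, the clusters cross the deposited groups. The study does not state this. Groups were kept as the labels give them, so each direction below rests on those labels, and the values without RG1, and without RG1 and PBS1, are given with the results. RG1, RG2, RG3 and PBS1 lay in row 1 of the slide and PBS2 and PBS3 in row 2.

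No member passed the test: 0 of 35 had an adjusted p below 0.05, as was the case for 0 of all genes (0%), and the smallest unadjusted p of a member was 0.0879. The adjusted p of every one of the 35 members was 0.99998. Unadjusted p-values below 0.05 were found for 0 members and for 2.19% of all genes. The arrays of both groups did not overlap for 2 members, Casp2 and Mlkl, which is 5.71% of the 35 beside 4.57% of all genes; under quantile normalization and in the authors' table the groups overlapped for Casp2, and with the mean of a gene's probes Cflar took its place. Members lay lower rather than higher in RG@M-γ-CD more often than genes at large, 27 of 35 (77.1%) beside 52.8% of all genes, although the median difference of the members was small (-0.09, beside -0.01 over all genes). The split hung on single arrays, and all genes shifted with the members: without RG2, 13 of 35 members (37.1%) and 40.2% of all genes lay lower, and without PBS1 29 of 35 (82.9%) and 61.2% did. With the slide row as a covariate, added after the values had been seen, 48.6% of the members and 36.5% of all genes lay lower. Row 2 held PBS arrays only, so in that fit each difference equals mean RG@M-γ-CD minus PBS1. Every value given below with this covariate thus rests on PBS1 as the only control array, and it cannot separate row from the particulars of PBS1.

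**Figure D1:**
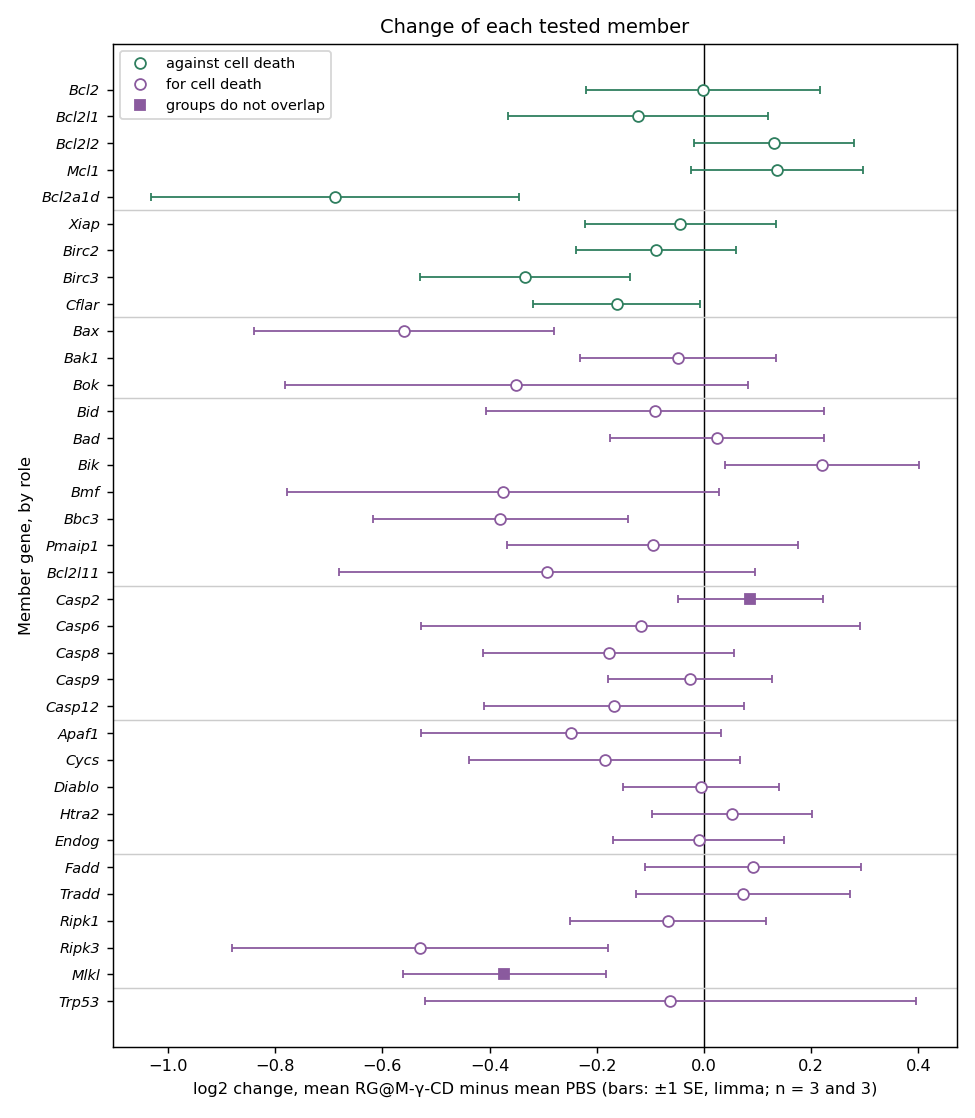
Difference of each tested member on the log2 scale (horizontal axis, mean RG@M-γ-CD minus mean PBS, 3 arrays each), by role, with bars of 1 SE from limma; green marks genes against and purple genes for cell death, and filled squares mark the 2 members whose groups do not overlap. The differences range from -0.69 for Bcl2a1d to 0.22 for Bik.

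No gene acting against cell death passed the test. Of the 9 tested, 2 had a higher and 7 a lower mean under RG@M-γ-CD, with a median difference of -0.09, and 0 had an unadjusted p below 0.05. Among the 5 BCL2-like survival genes the median difference was 0.00, on either side of 0 depending on the scaling. Mcl1, which protects the crypt epithelium and is a short-lived protein, differed by 0.14 ± 0.16 (SE), and Bcl2l2 by 0.13 ± 0.15. Bcl2, the founding member, differed by 0.00 ± 0.22, and Bcl2l1, which encodes BCL-XL, by -0.12 ± 0.24.

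Bcl2a1d was the most displaced survival gene. It belongs to the A1 genes, NF-κB targets expressed mainly in leukocytes. Its level was 2.80 on RG1, 1.58 on RG2 and 1.62 on RG3, against 2.73, 2.62 and 2.71 on PBS1, PBS2 and PBS3. RG2 and RG3 were low and close to each other, while RG1 was the highest of all 6 arrays, so the groups overlapped. The difference was -0.69 ± 0.34 (SE). Without RG1 it became -1.09 with a limma adjusted p of 0.0503, just outside the threshold. Without RG1 and PBS1 together it was -1.07 (limma adjusted p = 0.116).

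The macrophage and T cell marker lists differed between the same arrays. Of 10 macrophage markers 9 were tested, Cd163 not being well above background, and their summed log2 level was 7.32, 5.80 and 6.12 on RG1, RG2 and RG3 and lay between 7.05 and 7.28 on the PBS arrays. The 8 tested T cell markers, with Cd8a not well above background in either group and Trac without a probe under its name, summed to 3.83, 2.29 and 2.66 on RG1, RG2 and RG3 and to 3.27 to 3.52 on PBS. On RG1 the largest parts of these sums were Lyz2, at 7.06, and Zap70, at 2.92. For 2 of the 8 T cell markers, Cd3g and Cd5, RG1 too lay under every PBS array. In both sums, though, RG1 was on the side of PBS, as it was for Bcl2a1d. The sums of the other leukocyte lists did not share this order. The 9 tested neutrophil markers summed to 6.68, 6.36 and 5.60 on RG1, RG2 and RG3 and to 6.74, 5.94 and 6.49 on PBS1, PBS2 and PBS3, so RG2 lay above PBS2. On RG2 nearly all of that sum came from Csf3r, at 6.25. Single neutrophil markers were divided. For S100a8, S100a9, Cxcr2, Clec4d, Retnlg and Ly6g, RG2 and RG3 lay under every PBS array and RG1 did not. Csf3r, Elane and Trem1 lacked this order. The 7 tested B and plasma cell markers were highest on RG2, at 5.62, mostly from Jchain at 5.48. Fewer cells of a type and less RNA per cell cannot be told apart in tissue RNA, and the part of leukocyte content in the level of Bcl2a1d was not tested.

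**Figure D2:**
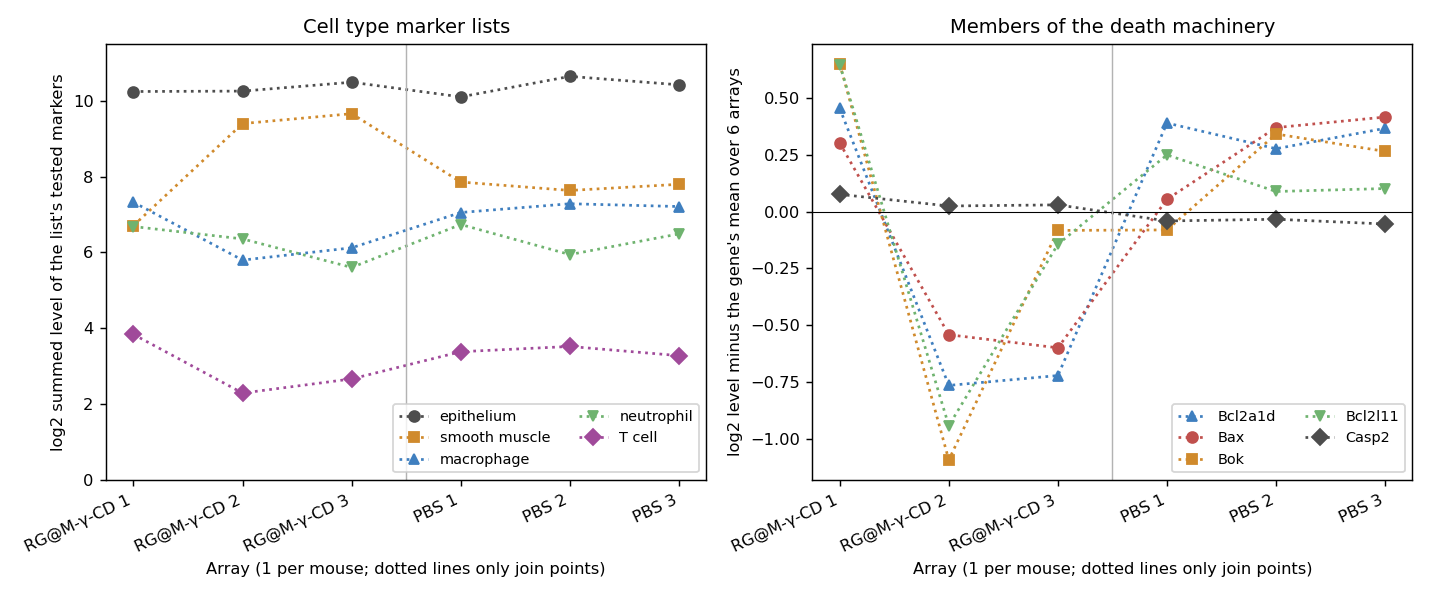
Left, log2 summed level of the tested markers of 5 cell types on each array; right, log2 level of 5 members less the gene's own mean over the 6 arrays. RG2 and RG3 are low in macrophage and T cell markers and high in smooth muscle markers (9.40 and 9.66), RG1 is the lowest array for smooth muscle (6.71), and Bcl2a1d and Bax are low on RG2 and RG3 only.

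The inhibitors of caspase activation all lay lower, by small amounts: 4 of 4, with a median of -0.13. The direction of 3 of them was not stable, as Xiap turned to 0.06 without RG2 and without PBS3 and to 0.12 with the slide row as a covariate, Cflar to 0.02 with that covariate, and Birc2 to 0.18 with the mean of its probes. Xiap, a direct inhibitor of caspases, differed by -0.04 ± 0.18 and Birc2, a ubiquitin ligase of TNF receptor complexes, by -0.09 ± 0.15. Cflar, the decoy of caspase 8, differed by -0.16 ± 0.16. Birc3, the NF-κB-induced partner of Birc2, was the most displaced.

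Birc3 had levels of -0.58, -0.18 and -0.75 on RG1, RG2 and RG3 and of -0.04, -0.18 and -0.29 on PBS1, PBS2 and PBS3. RG1 and RG3 lay under every PBS array and RG2 did not. The difference was -0.33 ± 0.20. It was -0.49 without RG2 and -0.21 without RG3.

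Genes acting for cell death gave nearly the same median. Of the 26 tested, 6 had a higher and 20 a lower mean under RG@M-γ-CD, with a median difference of -0.09, and 0 had an unadjusted p below 0.05. All 3 pore formers lay lower, with a median of -0.35. Bak1, which sits in the mitochondrial membrane at rest, differed by -0.05 ± 0.18.

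Bax, a pore former that moves from the cytosol to mitochondria, had levels of 3.77, 2.93 and 2.87 on RG1, RG2 and RG3 and of 3.52, 3.84 and 3.88 on PBS1, PBS2 and PBS3. Again RG2 and RG3 were low while RG1 lay among the PBS arrays. The difference was -0.56 ± 0.28. It was -0.85 without RG1 (limma adjusted p = 0.122), -0.40 without RG3 and -0.33 with the slide row as a covariate. Without RG1 and PBS1 together it was -0.96 (limma adjusted p = 0.139). Bok, a less well understood relative of Bax, had 4.03, 2.29 and 3.30 on RG1, RG2 and RG3 and 3.30, 3.72 and 3.64 on PBS1, PBS2 and PBS3, so RG1 was the highest and RG2 the lowest array, and its difference was -0.35 ± 0.43, which turned to 0.11 without RG2 and became -0.76 without RG1.

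Of the 7 tested BH3-only genes 2 lay higher, Bik (0.22 ± 0.18) and Bad (0.02 ± 0.20), and 5 lower, with a median of -0.10. Bbc3, which encodes the p53 target PUMA, had levels of 1.82, 2.20 and 1.38 on RG1, RG2 and RG3 and of 2.18, 2.31 and 2.05 on PBS1, PBS2 and PBS3. RG3 was its lowest array and RG2 lay within the PBS range. The difference was -0.38 ± 0.24, and it was -0.58 without RG2 and -0.17 without RG3. Pmaip1, or NOXA, another p53 target and the antagonist of MCL1, also had its lowest value on RG3, at 1.35, against 2.27 on RG1 and 2.15 on RG2, and its difference of -0.10 turned to 0.19 without RG3.

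Bcl2l11 (BIM) and Bmf, which respond to loss of growth factor signaling and of anchorage, followed the pattern of Bax. Bcl2l11 had 2.71, 1.12 and 1.92 on RG1, RG2 and RG3 and 2.32, 2.16 and 2.17 on PBS1, PBS2 and PBS3. Bmf had 2.74, 1.25 and 1.56 on RG1, RG2 and RG3 and 2.56, 2.10 and 2.02 on PBS1, PBS2 and PBS3. For both genes RG2 and RG3 lay under every PBS array and RG1 lay above every one. The differences were -0.29 for Bcl2l11 and -0.37 for Bmf. Without RG2 that of Bcl2l11 turned to 0.11 and that of Bmf was -0.07. Without RG1 they were -0.69 for Bcl2l11 (limma adjusted p = 0.373) and -0.82 for Bmf (limma adjusted p = 0.213).

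**Figure D3:**
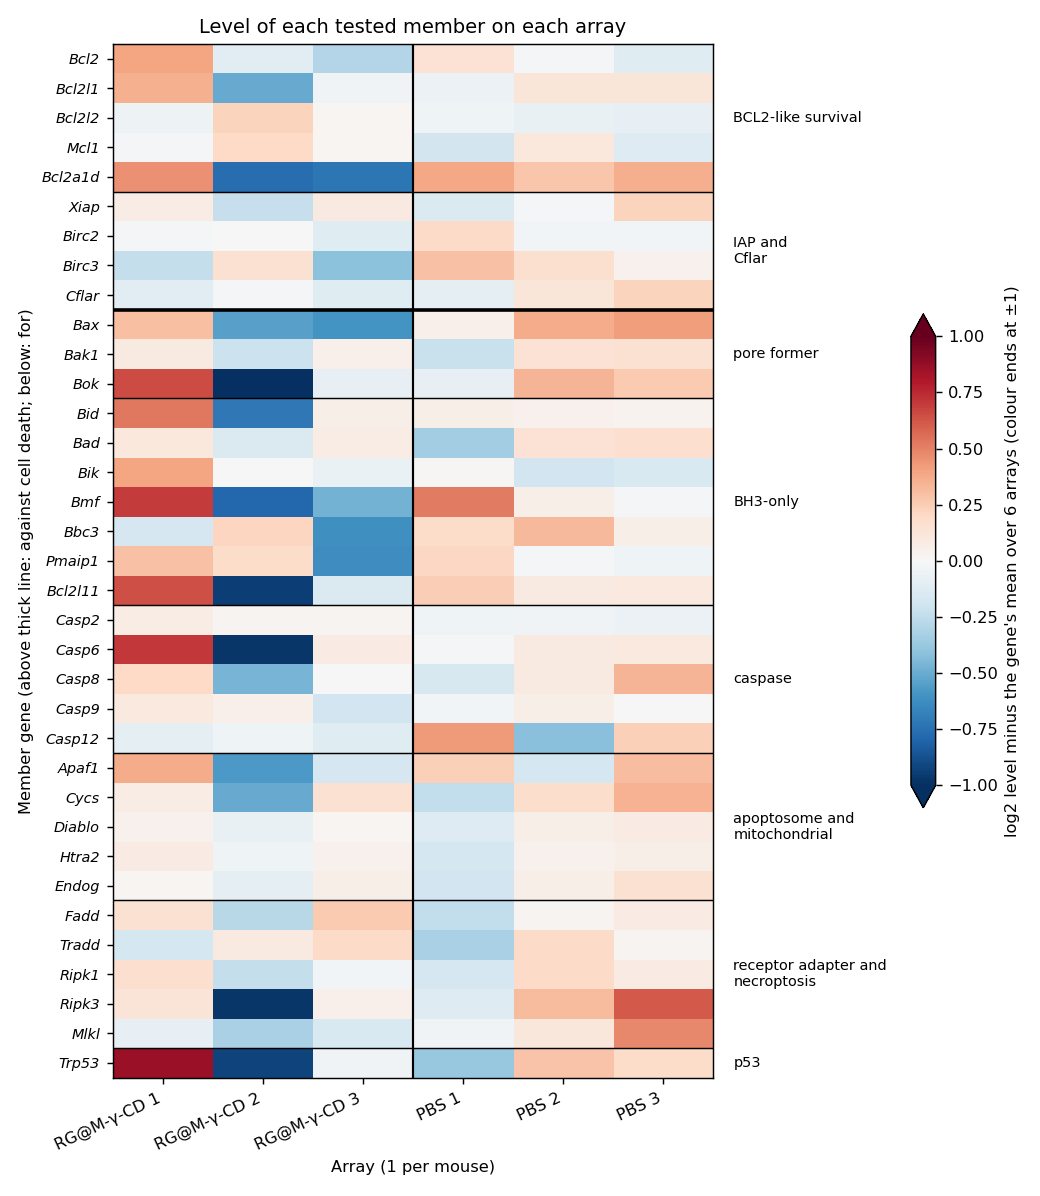
Level of each of the 35 tested members on each array, as the log2 level less the gene's mean over the 6 arrays (red higher, blue lower, color ends at 1 in either direction), with roles separated by lines and genes against cell death above the thick line. RG1 holds the highest value of 15 members and RG2 the lowest of 16.

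Among the 5 tested caspases 1 lay higher and 4 lower, with a median of -0.12. Casp2, a stress caspase activated on the PIDDosome, was the steadiest member, with a range of only 0.13 over the 6 arrays. Its levels were 3.98, 3.93 and 3.93 on RG1, RG2 and RG3 and 3.86, 3.87 and 3.85 on PBS1, PBS2 and PBS3. Every RG@M-γ-CD array thus lay above every PBS array, by a mean of 0.09 ± 0.13 (SE). The groups overlapped under quantile normalization, in the authors' table, and with the mean of its probes, where the difference was 0.02. The methods' t-test, which uses only the spread of this gene, put it under the unadjusted 0.05, whereas limma raises the spread of so steady a gene toward that of the others; Casp2 was the 1 member under 0.05 by that test, and 0 remained after Benjamini-Hochberg adjustment.

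Casp8, the initiator caspase of the death receptors, had 3.50, 2.84 and 3.31 on RG1, RG2 and RG3 and 3.15, 3.39 and 3.64 on PBS1, PBS2 and PBS3. Only RG2 lay below the PBS arrays, and the difference of -0.18 ± 0.23 turned to 0.01 without RG2. Casp6, an effector caspase, spread further, from 2.88 on RG2 to 4.56 on RG1, and its difference of -0.12 turned to 0.34 without RG2. The initiator Casp9 differed by -0.03 ± 0.15 and Casp12, an endoplasmic reticulum caspase of rodents, by -0.17 ± 0.24.

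The apoptosome and mitochondrial genes differed little in mean, with 1 of 5 higher and a median of -0.01. Diablo (-0.01 ± 0.15), Htra2 (0.05 ± 0.15) and the mitochondrial nuclease gene Endog (-0.01 ± 0.16) lay near 0, with Diablo and Endog just above it under normexp and quantile scaling and in the authors' table, and Cycs differed by -0.19 ± 0.25. Apaf1, the scaffold of the apoptosome, had 0.07, -0.88 and -0.47 on RG1, RG2 and RG3 and -0.06, -0.47 and 0.01 on PBS1, PBS2 and PBS3. RG2 was the lowest and RG1 the highest array. The difference was -0.25 ± 0.28, and it was -0.02 without RG2 and -0.50 without RG1.

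Of the 5 genes of receptor adapters and necroptosis, the adapters Fadd (0.09 ± 0.20) and Tradd (0.07 ± 0.20) lay higher and the kinase gene Ripk1 (-0.07 ± 0.18) lower. The downstream pair of necroptosis was more displaced. Ripk3, the kinase that phosphorylates MLKL, had 3.22, 2.12 and 3.14 on RG1, RG2 and RG3 and 2.96, 3.40 and 3.70 on PBS1, PBS2 and PBS3. RG2 was far below the rest while RG1 and RG3 lay within the PBS range. The difference was -0.53 ± 0.35, and it fell in size to -0.18 without RG2 and to -0.14 with the slide row as a covariate.

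Mlkl, whose product ruptures the plasma membrane, had 0.59, 0.35 and 0.53 on RG1, RG2 and RG3 and 0.64, 0.79 and 1.16 on PBS1, PBS2 and PBS3. This was the one member that lay lower on every RG@M-γ-CD array than on any PBS array, and across all genes such a separation downward was found for 2.19%. The gap between RG1 and PBS1 was small beside the spread within PBS, and the difference was -0.37 ± 0.19, which shrank to -0.23 without PBS3 and to -0.15 with the slide row as a covariate.

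Trp53, the damage-sensing transcription factor upstream of Bbc3, Pmaip1 and Bax, had the widest range of any member, 1.79 over the 6 arrays. It had 1.79, 0.00 and 0.89 on RG1, RG2 and RG3 and 0.55, 1.21 and 1.11 on PBS1, PBS2 and PBS3. The treated arrays held both its highest and its lowest value. The mean difference was -0.06 ± 0.46, and it turned to 0.38 without RG2.

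**Figure D4:**
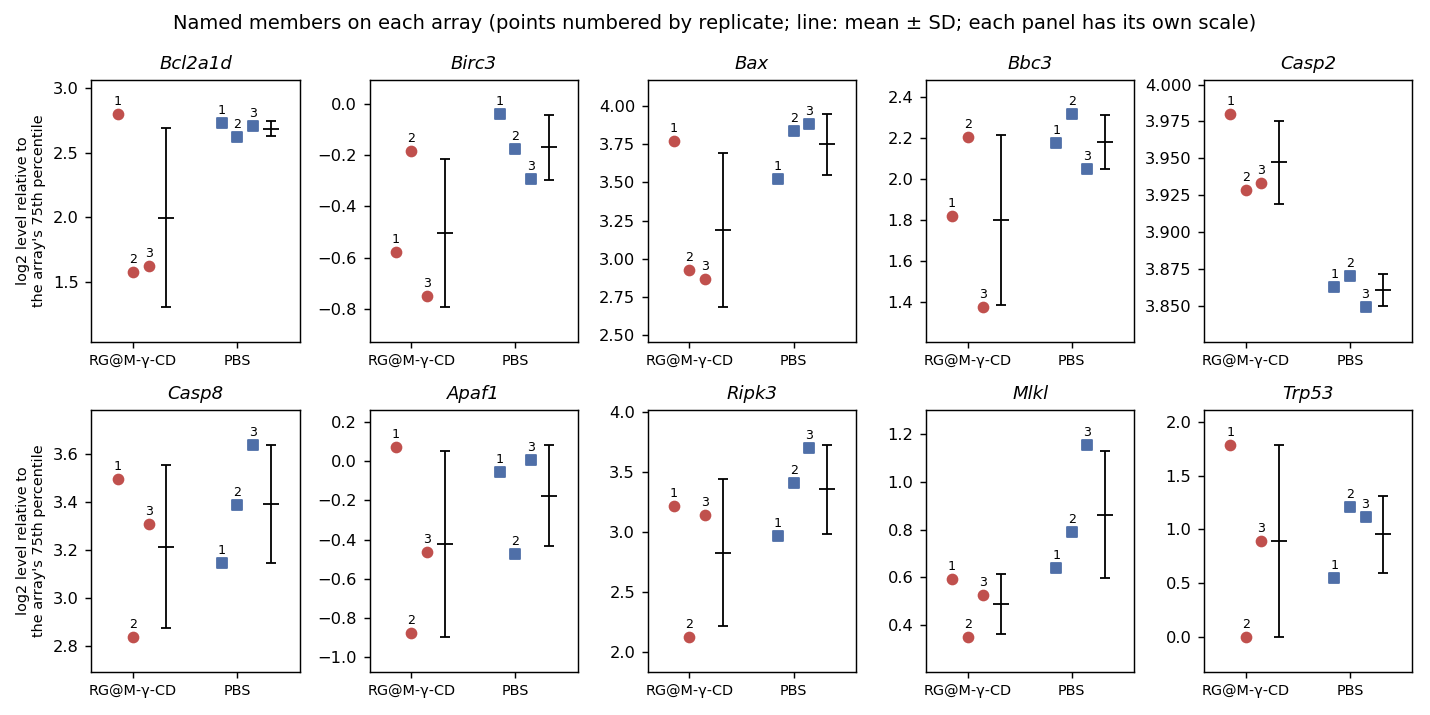
Log2 level relative to the array's 75th percentile (vertical axis, with a scale of its own in each panel) of 10 members on each array, with points numbered by replicate and a line for the mean with the SD. Casp2 and Mlkl show no overlap between groups; for Bcl2a1d and Bax, RG2 and RG3 lie low and RG1 lies with PBS.

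The range over the 3 treated mice exceeded the difference between group means for 31 of 35 members. The share over all genes was not computed, so this count is not a trait of the members. RG1 held the highest level of 15 of 35 members (42.9%, beside 28.9% of all genes) and the lowest of 0. RG2 held the lowest level of 16 (45.7%, beside 36.7%) and the highest of 2. Among genes acting for cell death the contrast was wider, RG1 being highest for 12 of 26 and RG2 lowest for 13 of 26. The members were no more variable than genes at large, since their median range over the 6 arrays was 0.71 beside 0.72 for all genes.

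What the comparison showed therefore depended on which arrays entered it. Without RG1, 4 members had an unadjusted p below 0.05, namely Bcl2a1d, Bax, Bmf and Bcl2l11, all lower in RG@M-γ-CD, which is 11.4% of the 35 beside 12.5% of all genes, and 0 members passed the adjusted threshold beside 1.04% of all genes. Without RG2, the 2 members Birc3 and Bbc3 had an unadjusted p below 0.05, 5.71% beside 2.75% of all genes, and the median difference turned to 0.03 for genes acting for cell death and to 0.05 for those acting against it. Leaving out RG3, PBS1, PBS2 or PBS3 gave 0 members at that level. Without PBS1 the groups did not overlap for 11 members (31.4%, beside 14.9% of all genes), 8 of them lower in RG@M-γ-CD. In that fit 1962 of the 2870 genes without overlap were lower.

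With both RG1 and PBS1 left out, RG2 and RG3 faced PBS2 and PBS3. The groups did not overlap for 20 of 35 members (57.1%, beside 49.3% of all genes), 17 of them lower in RG@M-γ-CD. Over all genes, 5865 of the 9648 without overlap were lower. The 3 members Bcl2a1d, Bax and Bmf had an unadjusted p below 0.05 (8.57%, beside 12.3% of all genes). The median difference was -0.32 for genes acting for cell death and -0.18 for genes acting against it. These 4 arrays split by slide row in the same way as by treatment, so row and treatment cannot be told apart in them. They also differed in smooth muscle markers, whose 9 tested genes, all but Lmod1, summed to 9.40 and 9.66 on RG2 and RG3 and to 7.63 and 7.80 on PBS2 and PBS3, and the part of tissue makeup in the members' values was not tested.

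Probes of one member did not always tell the same story, and the disagreement had a pattern, which was looked for after the values had been seen. For each member whose used probe lists a RefSeq mRNA, the log2 difference between a further tested probe and the used probe was taken on each array and centered on its mean over the 6 arrays. For 8 probes of 7 members whose main accession is an Ensembl transcript, none listing a RefSeq mRNA, the median of this centered difference was -0.34, 0.66 and -0.03 on RG1, RG2 and RG3 and 0.51, -0.44 and -0.06 on PBS1, PBS2 and PBS3. Such probes therefore stood high on RG2 and PBS1 and low on RG1 and PBS2 relative to the mRNA probe of the same gene. RG2 exceeded RG1 and RG3 for 87.5% of the 8, Cflar being the exception, and PBS1 exceeded PBS2 and PBS3 for 87.5%, Xiap being the exception.

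Apaf1 showed it most clearly, with centered differences of -0.90, 1.31 and -0.23 on RG1, RG2 and RG3 and of 1.11, -0.69 and -0.59 on PBS1, PBS2 and PBS3. For Casp2, whose used probe hardly moved, they were -0.80, 0.87 and -0.27 on RG1, RG2 and RG3 and 0.71, -0.36 and -0.15 on PBS1, PBS2 and PBS3. For Bcl2 they were -1.25, 0.74 and -0.18 on RG1, RG2 and RG3 and 0.70, -0.67 and 0.65 on the PBS arrays. In all 3 genes RG2 and PBS1 were high and RG1 was the lowest array, whichever group they belonged to. In genomic position the Ensembl probe lay 5′ of the used probe by 7042 bases for Apaf1, 13305 for Casp2 and 172517 for Bcl2, and for the 2 probes of Birc3 by 11784 and 14260 bases.

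The pattern was not particular to the death genes. Over 1344 probes of all genes with an Ensembl transcript as main accession the medians were -0.46, 0.66 and -0.18 on RG1, RG2 and RG3 and 0.51, -0.33 and -0.13 on PBS1, PBS2 and PBS3. Further probes with a RefSeq mRNA as main accession had medians near 0 on every array. They lay between -0.07 and 0.08 for 18 probes of 12 members and between -0.03 and 0.03 for 6168 probes of all genes. Single RefSeq probes spread further. A probe of Bcl2l11 had -0.52, 0.86 and -0.19 on RG1, RG2 and RG3 and 0.42, -0.35 and -0.22 on PBS1, PBS2 and PBS3. RG2 exceeded RG1 and RG3 for 38.9% of the 18 probes and for 38.4% over all genes. Of the members' probes, 83.3% of the RefSeq kind and 100% of the Ensembl kind lay 5′ of the used probe, at a median of 13269 and 16192 bases. Over all genes the medians were 2575 and 11124 bases, and the part of this distance in the pattern was not tested. The median GC content was 40.8% for the members' Ensembl probes and 45% for their RefSeq probes. RG2 and PBS1, the arrays on which these probes stood high, were also the ones on which the used probes of all genes had the lowest median deviation from their own mean over arrays (-0.10 and -0.11), and what sets this difference between arrays was not tested.

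**Figure D5:**
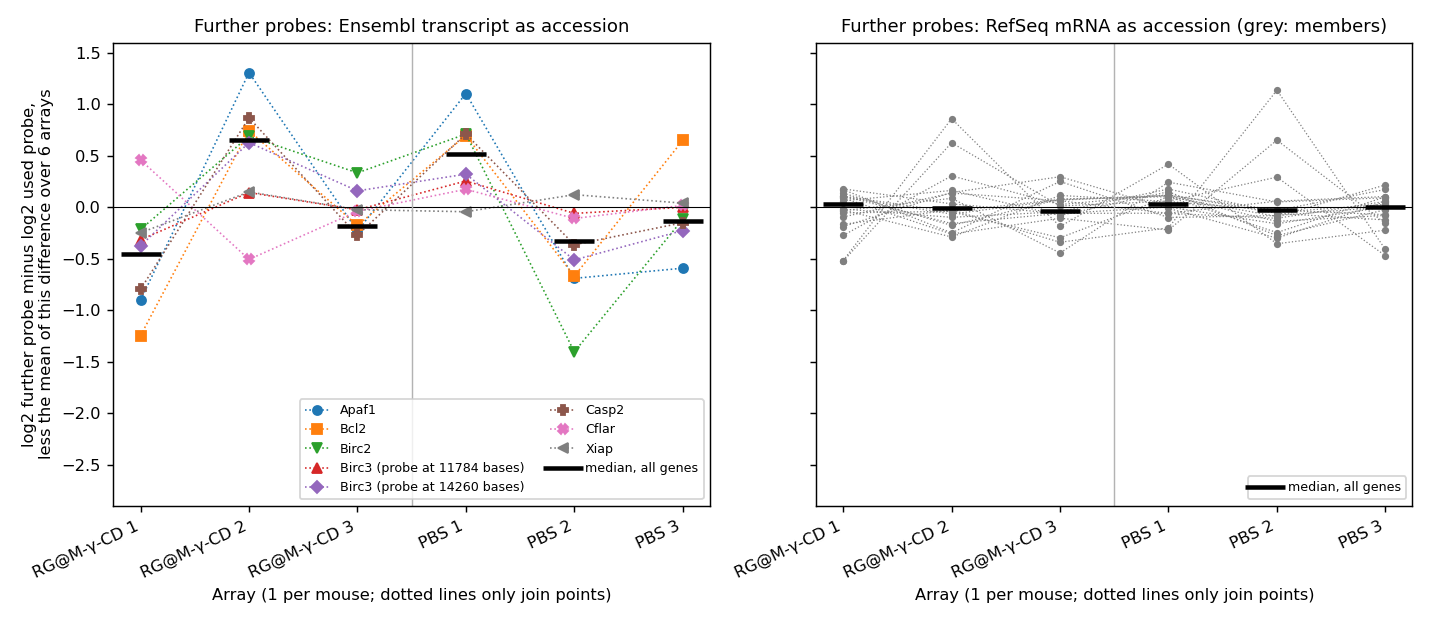
Log2 of a further probe minus log2 of the used probe of the same gene, less the mean of this difference over the 6 arrays, on each array; left, 8 probes of members with an Ensembl transcript as main accession, right, 18 with a RefSeq mRNA, with black bars for the medians over all genes. On the left RG2 and PBS1 stand high (all-gene medians 0.66 and 0.51), and on the right all medians lie near 0.

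Of 44 further genes of cell death and p53 signaling, 41 could be tested, Fasl, Trp73 and Bcl2l10 not being well above background on all arrays of either group. The treated mean lay higher for 15 and lower for 26, with a median of -0.04, and 0 passed the adjusted threshold. At an unadjusted p below 0.05 there were 3, Casp4, Tnfsf10 and Cdkn1a. The groups did not overlap for 7, which is 17.1% beside 4.57% of all genes. All 7 were lower, a direction in which 2.19% of all genes did not overlap. These 7 were those 3 with Mdm2, Tnfrsf10b, Pidd1 and Bcl2l15. Values without single arrays or with the slide row are not given for them, so their dependence on single arrays is not shown.

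Casp4, the inflammatory caspase that senses intracellular lipopolysaccharide, had 3.54, 3.44 and 2.93 on RG1, RG2 and RG3 and 3.98, 3.70 and 4.31 on PBS1, PBS2 and PBS3, a difference of -0.70 ± 0.24. Tnfsf10, which encodes the death ligand TRAIL, had -0.05, -0.27 and -0.80 on RG1, RG2 and RG3 and 0.60, 0.17 and 0.07 on PBS1, PBS2 and PBS3, a difference of -0.66 ± 0.25. Its receptor gene Tnfrsf10b differed by -0.40 ± 0.17. In contrast to Bax and Bcl2a1d, RG1 lay below every PBS array for these genes, though by a small margin for Tnfsf10 and Tnfrsf10b.

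The p53 targets Cdkn1a and Mdm2 were lower on all 3 treated arrays as well. Cdkn1a, the cell cycle inhibitor p21, had 2.91, 2.86 and 2.89 on RG1, RG2 and RG3 and 3.08, 3.34 and 3.37 on PBS1, PBS2 and PBS3, a difference of -0.38 ± 0.15. Mdm2, the ubiquitin ligase of p53, differed by -0.33 ± 0.15, and Pidd1, the partner of Casp2 in the PIDDosome, by -0.42 ± 0.25. Bcl2l15, a little-known relative of Bcl2, differed by -1.66 ± 0.74 and stood far apart on PBS1, where it reached 1.48 against -1.10 and -0.88 on PBS2 and PBS3.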

How the data were processed

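Total RNA of tumor-bearing colon from 3 RG@M-γ-CD mice and 3 PBS mice was labelled with Cy3 and hybridized to one-color Agilent mouse arrays. The spot intensities deposited by the authors came from Agilent Feature Extraction 10.7.1.1, per the submitters' processing notes, corrected for background and not normalized between arrays. The authors also deposited a table of log2 values for 56745 probes, whose columns follow the intensities of their own arrays (r of at least 0.999). Its normalization method is not given in the sources used here. The table served as an alternative. Its results were nearly those of quantile normalization (Bcl2a1d differed by -0.682 in both), so these 2 alternatives are not separate checks.

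The intensities were processed in R 4.3.3. Controls and outlier spots were dropped, log2 values of spots sharing a probe were averaged, and each array was scaled by subtracting the 75th percentile over its 56605 gene probes. A probe was tested when at least 0.5 of its spots were well above background on each array of 1 group or of both (3 arrays each), and a gene was represented by its brightest tested probe. Members were taken by the gene name on the array; for other genes 58.3% of probes took a symbol through their RefSeq accession (RefSeq genes of GRCm38.p6). Groups were compared with limma 3.58.1 (functions lmFit and eBayes), adjusting by Benjamini-Hochberg over 19090 genes and a threshold of 0.05. The fit was tested on simulated data. Having 3 arrays per group limits the precision, and p-values measure the spread between these mice.

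Members and gene lists were chosen with earlier results of these data known. Members are given with array values when they had an unadjusted p below 0.05, groups that did not overlap, an adjusted p below 0.05 without 1 array, or the largest difference of their role, and Bok, Bcl2l11, Bmf, Pmaip1 and Casp6 were added after their values were seen; other cell death genes are named by the first 2 of these rules. Alternatives were normexp background correction with an offset of 50, quantile normalization, the authors' table, testing dim probes too, requiring signal on all 6 arrays, averaging the probes of a gene, keeping outlier spots, blocking on the replicate number, the methods' t-test, and leaving out arrays; the slide row as a covariate was added after seeing the data.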

Additional observations from a re-analysis of the deposited data

How the results depend on the processing

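The count of 0 members past the adjusted threshold held under every alternative run, and so did the count of 0 genes except without RG1. Leaving out 1 array in turn, genes past the adjusted threshold ranged from 0 to 202, members at an unadjusted p below 0.05 from 0 to 4, and the median difference from -0.27 to 0.033 for genes acting for cell death and from -0.15 to 0.049 for those acting against it. RG1 decides the first of these counts, and the medians turned sign without RG2. Without RG1 and PBS1 together, 3 members had an unadjusted p below 0.05 and the medians were -0.32 (for) and -0.18 (against). The mean of a gene's probes gave -0.18 against cell death, the methods' t-test 1 member at an unadjusted p below 0.05, and the slide row as a covariate, chosen after seeing the data, medians of -0.00020 against and 0.041 for cell death. The fit with slide row sets the RG@M-γ-CD arrays against PBS1 alone, the only control sharing their row. Among the 10 members named by rule, signs turned without RG2 for Casp8 (0.011) and Trp53 (0.38), without PBS2 and PBS3 for Trp53 (0.063 and 0.015), and with slide row as a covariate for Casp8 (0.068) and Trp53 (0.35). Of all 35 members, 14 turned sign without RG2, 10 with slide row as a covariate, 1 to 6 without another array, and 1, Birc2, with the mean of a gene's probes. Over the arrays left out in turn Trp53 ranged from -0.51 to 0.38 and Casp8 reached 0.011. The cause of these shifts was not tested. Normexp, quantile normalization, the authors' table, both other filters and kept outlier spots turned no sign among those 10, and of all 35 only Bcl2, Diablo and Endog, all near 0, changed side under normexp, quantile normalization and the authors' table. The share of members lower in RG@M-γ-CD was 77.1%, 68.6% under normexp, quantile normalization and the authors' table, and 48.6% with slide row. The fit with the replicate block left 0 members past the adjusted threshold and the medians at -0.09 and -0.09. Same-numbered arrays deviated together at r of -0.25, -0.23 and 0.14 for numbers 1, 2 and 3, and the differently numbered RG2 and PBS1 at 0.41. The deviations were centered within each group of 3 arrays, so these values cannot tell whether same-numbered samples shared more than a number. Signal over background limits Hrk, whose probes no array put well above background.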
